A study of Mus musculus with 5 samples.

Results

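AP-1 and immediate early genes were followed in mouse LT-HSCs (long-term haematopoietic stem cells) with and without the transcription factor LRF, which is encoded by Zbtb7a. The set held 10 genes, chosen by name with earlier results of these data known: Fos, Fosb, Fosl2, Jun, Junb, Jund, Atf3, Egr1, Ier2 and Ier3, out of 18193 genes with a probe set of their own. All probe sets that the platform annotation gives to 1 of these genes alone were used, 13 in all. Each gene was represented by its brightest probe set, the one with the highest mean over the 5 arrays. RNA came from 3 Lrf knockout samples (Zbtb7a Flox/Flox Mx1-Cre+) and 2 control samples (Zbtb7a Flox/+ Mx1-Cre+), all from C57BL/6 mice aged 4 weeks. The controls thus carried Cre and 1 floxed allele as well, and both groups received 2 injections of 250 µg pIpC, a double-stranded RNA analogue that switches on Cre through the interferon-responsive Mx1 promoter. Cells were sorted 9 days after the first injection as LSK cells (negative for lineage markers, positive for Sca-1 and Kit) that lacked IL7Ra, Flt3 and CD48 and carried CD150. Mx1 is active in many cell types, so deletion was not limited to stem cells, and the label of knockout replicate 3 names 2 animals where the others name 1 each.

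AP-1 is a dimer of basic leucine zipper (bZIP) proteins: a FOS protein pairs with a JUN protein, while JUN proteins can also pair with each other or with ATF proteins such as ATF3. Immediate early genes are transcribed from factors already present in the cell, so their RNA appears within minutes of a growth signal, a cytokine or a stress, and mostly decays again soon after. Their RNA also rises when tissue is dissociated and cells are sorted, which is why they are watched in sorted stem cells, as are the zinc finger factor Egr1 and the short-lived proteins of Ier2 and Ier3.

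Knockout replicate 2 stood apart from the other 4 arrays over the whole table. Its correlation with them, taken across probe sets and so not across replicates, was 0.945 to 0.970, against 0.977 to 0.990 among the others. In it, 519 genes read at least 1 log2 above the highest of the other 4 arrays, a share of 2.85%, and 497 read at least 1 below the lowest, a share of 2.73%. The same count of genes above was 60 for knockout replicate 1 and 7 for knockout replicate 3, against 17 for control 1 and 38 for control 2. The distance between the 3′ and 5′ control probe sets of Actb, a measure of RNA length, was 3.85 log2 in knockout replicate 2 and 4.90 to 5.21 in the other 4 arrays, and that of Gapdh was 4.67 against 5.06 to 5.17. The brightest Zbtb7a probe set read 8.72, 8.33 and 9.06 in the knockouts and 8.22 and 8.36 in the controls (log2 difference 0.41, SE 0.26), and its other probe sets differed by -0.36 (SE 0.31) and -0.054 (SE 0.18). The part of the gene that was deleted is not given in the sources used here, so Zbtb7a checks nothing about the labels.

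The promoters of the 5 members that differed most in knockout replicate 2 are shown first. These members were picked by their values in that array alone, and whether they are regulated together was not tested. Each window covers 250 bases before and 50 after the RefSeq start site (build GRCm38.p6), 5′ to 3′ on the gene's strand. The windows lie at chr12:85473640-85473939 (plus strand) for Fos, chr7:19309996-19310295 (minus) for Fosb, chr1:191183284-191183583 (minus) for Atf3, chr4:95052173-95052472 (minus) for Jun and chr8:84978699-84978998 (minus) for Junb. Capitals mark the half-site TGACG of cyclic AMP response elements, read on either strand, and the AP-1-like letters TGACATCA.
Fos: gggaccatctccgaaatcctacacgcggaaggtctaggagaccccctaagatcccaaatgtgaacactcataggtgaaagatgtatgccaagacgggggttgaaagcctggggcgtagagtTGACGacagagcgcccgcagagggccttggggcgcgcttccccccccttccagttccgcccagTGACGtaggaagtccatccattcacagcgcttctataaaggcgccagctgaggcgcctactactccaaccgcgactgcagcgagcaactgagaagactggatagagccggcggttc
Fosb: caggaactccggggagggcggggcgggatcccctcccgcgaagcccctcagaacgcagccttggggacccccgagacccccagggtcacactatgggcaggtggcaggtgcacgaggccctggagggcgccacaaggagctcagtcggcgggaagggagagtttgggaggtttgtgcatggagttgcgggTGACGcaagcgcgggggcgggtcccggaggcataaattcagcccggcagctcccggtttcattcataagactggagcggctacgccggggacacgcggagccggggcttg
Atf3: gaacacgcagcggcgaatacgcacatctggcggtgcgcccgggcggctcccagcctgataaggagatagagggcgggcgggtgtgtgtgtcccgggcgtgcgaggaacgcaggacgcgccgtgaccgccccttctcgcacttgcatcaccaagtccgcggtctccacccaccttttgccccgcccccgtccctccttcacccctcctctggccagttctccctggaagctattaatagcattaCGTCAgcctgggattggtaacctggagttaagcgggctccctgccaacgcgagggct
Jun: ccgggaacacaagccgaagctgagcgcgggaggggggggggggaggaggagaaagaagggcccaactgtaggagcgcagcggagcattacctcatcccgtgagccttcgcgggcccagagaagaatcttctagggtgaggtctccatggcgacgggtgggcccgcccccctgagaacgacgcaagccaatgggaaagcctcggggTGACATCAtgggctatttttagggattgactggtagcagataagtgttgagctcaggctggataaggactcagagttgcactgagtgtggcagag
Junb: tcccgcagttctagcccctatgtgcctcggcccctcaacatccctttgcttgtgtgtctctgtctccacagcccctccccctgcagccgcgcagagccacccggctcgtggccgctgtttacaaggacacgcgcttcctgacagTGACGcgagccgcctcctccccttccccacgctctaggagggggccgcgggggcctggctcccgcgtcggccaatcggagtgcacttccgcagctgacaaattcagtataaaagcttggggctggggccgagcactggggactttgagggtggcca

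All letters were searched on both strands. A TGACG half-site, or its reverse complement CGTCA, was found in 4 of the 8 members with a RefSeq promoter window (Fos, Fosb, Atf3 and Junb), and in 20.8% of 32851 promoter windows of the same length. Counted from the start site, its first base lay at -129 and -66 in Fos, -60 in Fosb, -106 in Junb and, on the opposite strand, -7 in Atf3. TGACATCA was found in Jun at -45 and in 3.62% of all windows. The full palindrome TGACGTCA, which holds the half-site, occurred in 0 of 8 members and 1.79% of windows. The classical AP-1 letters TGANTCA occurred in 0 of 8 and 7.81%, and the CArG box, the sequence bound by serum response factor, in 0 of 8 and 1.63%. The best known serum response element of Fos lies farther upstream than this window. The windows of Fosl2, Jund and Ier3 held none of these letters, and Egr1 and Ier2 are named only.

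All 10 members read higher in knockout replicate 2 than in any other array. The gap to the highest of the other 4 arrays was 1.30 to 6.82 log2 (median 2.54), where the median over all 18193 genes was -0.16. It was at least 1 log2 in 10 of 10 members, against 2.85% of all genes, and in 0 members for any other array. This is a description of 1 array and has no replicate check. The median member read 3.10 log2 above the mean of the other 4 arrays, and the median gene 0.00. Sorted LT-HSCs are a bulk sample, in which a larger share of cells of some type and more RNA per cell cannot be told apart.

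**Figure D1:**
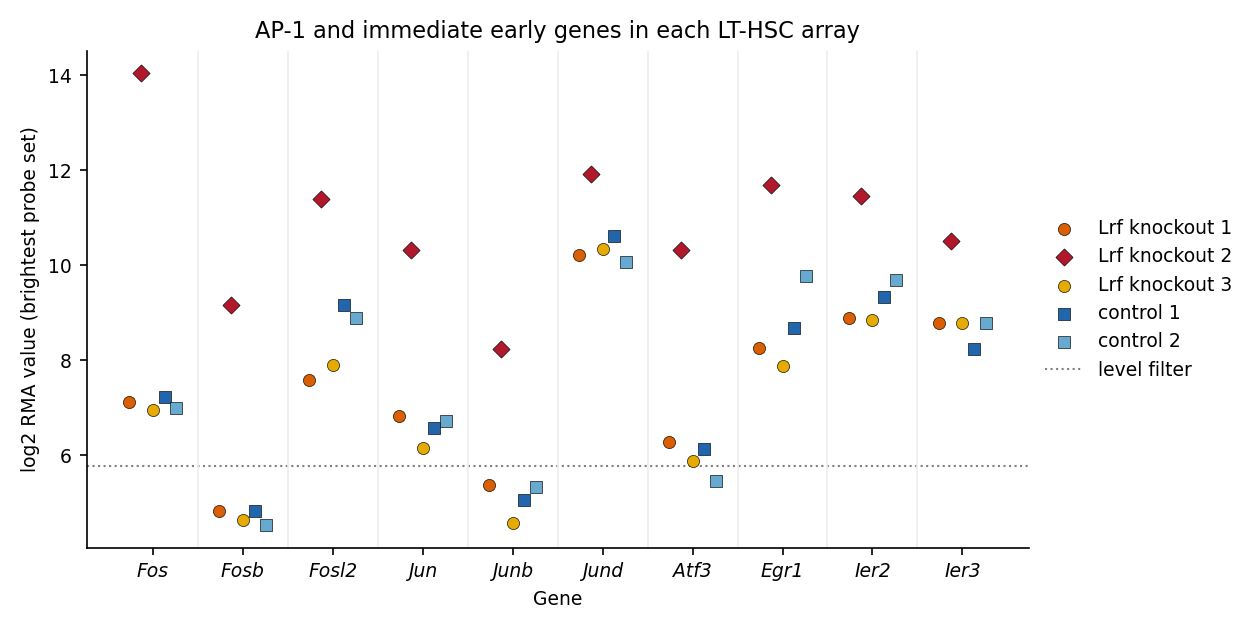
Log2 RMA value of the brightest probe set (vertical axis) of each of the 10 genes (horizontal axis) in each array, with knockouts left of controls; each point is 1 array and the dotted line is the level filter at 5.77. Knockout replicate 2 (diamonds) is the highest point for every gene, by 6.82 log2 for Fos and 1.30 for Jund, and the other 4 arrays lie within 0.27 to 1.89 of each other.

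Among the FOS family, Fos showed the widest gap. Fos, the founding member of the family, read 7.13, 14.04 and 6.96 in knockout replicates 1, 2 and 3, against 7.23 and 6.99 in controls 1 and 2. Apart from replicate 2 the Fos arrays lay within 0.27 log2 of each other, and replicate 2 was 125-fold above their mean. By the size of this gap Fos ranked 2 of 18193 genes. Fosb, a FOS family gene that is induced by many of the same signals, read 4.83, 9.17 and 4.64 in the knockouts, against 4.83 and 4.52 in the controls. The 4 lower Fosb values lay under 5.77, the level below which the dimmest 40% of probe sets fell, so its 22.0-fold distance to their mean starts near background and its size is uncertain.

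Fosl2 encodes FRA-2, a FOS-related protein without the strong activating end of FOS. It read 7.58, 11.39 and 7.90 in the knockouts, against 9.17 and 8.88 in the controls, so that replicate 2 lay above and replicates 1 and 3 below both controls. The distance of replicate 2 to the mean of the other 4 arrays was 3.01 log2 for this probe set and 0.18 for the second Fosl2 probe set, which read 7.31, 7.39 and 7.24 in knockouts and 7.30 and 7.001 in controls. The probe sets of Fosl2 thus disagreed, and which part of the transcript each one reads was not analysed here.

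Of the JUN family, Jun, the main partner of FOS, read 6.82, 10.33 and 6.16 in the knockouts on its brightest probe set, against 6.58 and 6.71 in the controls. Its second probe set read 5.49, 11.16 and 4.96 in the knockouts, against 5.32 and 5.13 in the controls. Both probe sets of Jun thus put replicate 2 far above the rest, by 13.5-fold over the mean of the other 4 arrays on the first and 61.0-fold on the second, which started below the filter level. Junb, a JUN protein that restrains proliferation of haematopoietic stem cells in mice, read 5.38, 8.23 and 4.58 in the knockouts, against 5.05 and 5.33 in the controls. Its 4 lower values again lay under 5.77.

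Jund, the JUN family member that is made in resting cells, showed the smallest gap. It read 10.21, 11.92 and 10.33 in the knockouts, against 10.63 and 10.07 in the controls, a distance of 1.61 log2 (3.06-fold) between replicate 2 and the mean of the other 4 arrays. The second Jund probe set was dim and showed no such gap, with 5.98, 5.82 and 5.82 in knockouts and 5.97 and 5.76 in controls. Over all 13 probe sets, 11 read at least 1 log2 higher in replicate 2 than in any other array, and the exceptions were the second probe sets of Fosl2 and Jund.

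Atf3, a stress-induced bZIP factor, read 6.28, 10.31 and 5.87 in the knockouts, against 6.14 and 5.46 in the controls. Replicate 2 was 20.8-fold above the mean of the others, and the remaining 4 arrays of Atf3 spanned 0.82 log2 near the filter level. Egr1, a zinc finger factor that has been tied to stem cell quiescence and retention in mouse bone marrow, read 8.26, 11.70 and 7.88 in the knockouts, against 8.68 and 9.78 in the controls. Egr1 varied most among the other 4 arrays, over 1.89 log2, and control 2 was the next highest array after replicate 2.

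Ier2, a short-lived nuclear protein, read 8.89, 11.45 and 8.86 in the knockouts, against 9.33 and 9.69 in the controls. Ier3, an early response protein that influences cell survival, read 8.78, 10.52 and 8.78 in the knockouts, against 8.23 and 8.78 in the controls. The distance of replicate 2 to the mean of the other arrays was 2.26 log2 for Ier2 and 1.88 for Ier3. Knockout replicates 1 and 3 and control 2 shared 1 Ier3 value, equal in every deposited decimal, and 42.6% of all probe sets held such equal values in at least a pair of arrays.

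**Figure D2:**
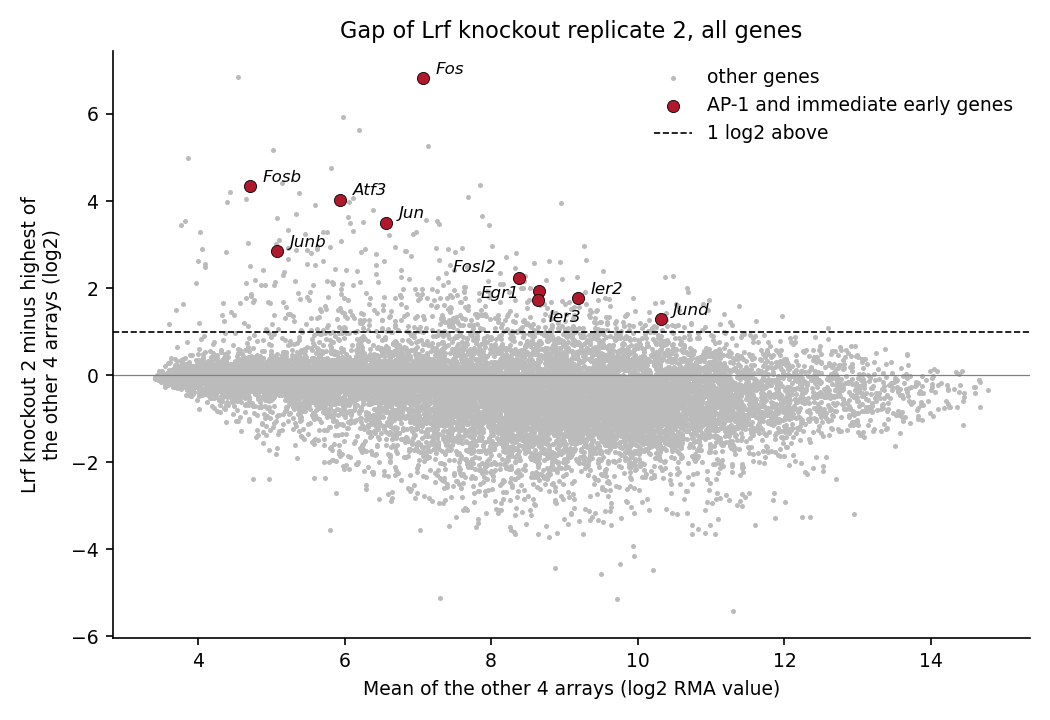
Log2 value of knockout replicate 2 minus the highest of the other 4 arrays (vertical axis) against the mean log2 value of those 4 arrays (horizontal axis), for 18193 genes; grey points are other genes, red points the 10 AP-1 and immediate early genes, and the dashed line marks a gap of 1 log2. All 10 red points lie above the dashed line, as do 2.85% of all genes, with Fos at 6.82.

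The comparison of Lrf knockout with control asks how loss of LRF affects the transcripts of LT-HSCs, and none of these genes separated the groups. In 0 of 10 members did all 3 knockouts lie above both controls (2.92% of all genes), and in 0 did all 3 lie below them (3.74%). Of the 10 genes, 8 passed the level filter and were tested, and these 8 also exceed 5.77 on the mean of the other 4 arrays alone. Fosb and Junb were not tested. Fos averaged 9.38 ± 4.04 (SD, n = 3) in knockouts and 7.11 ± 0.17 (SD, n = 2) in controls, a difference of 2.27 (SE 2.41). Atf3 averaged 7.49 ± 2.46 in knockouts and 5.80 ± 0.48 in controls, a difference of 1.69 (SE 1.48), and Jun differed by 1.13 (SE 1.34). Each of these differences was smaller than the spread among the knockouts, which came from replicate 2.

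The smallest unadjusted limma p among the 8 was 0.238, for Ier3, which averaged 9.36 ± 1.003 in knockouts and 8.50 ± 0.39 in controls (difference 0.86, SE 0.63). The other differences were 0.48 for Jund (SE 0.61), 0.23 for Ier2 (SE 0.90), 0.052 for Egr1 (SE 1.30) and -0.064 for Fosl2 (SE 1.27). In limma 0 of 8 members passed, and each had an adjusted p of 1; over all 27022 probe sets tested 0 passed (0%), and 306 (1.13%) had an unadjusted p under 0.05. Over the 10 members the median difference was 0.86, and over all genes -0.0082. Precision is limited by having 3 knockout and 2 control arrays. The labels do not say that the samples came from separate litters or days, so p-values measure the spread between these samples.

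**Figure D3:**
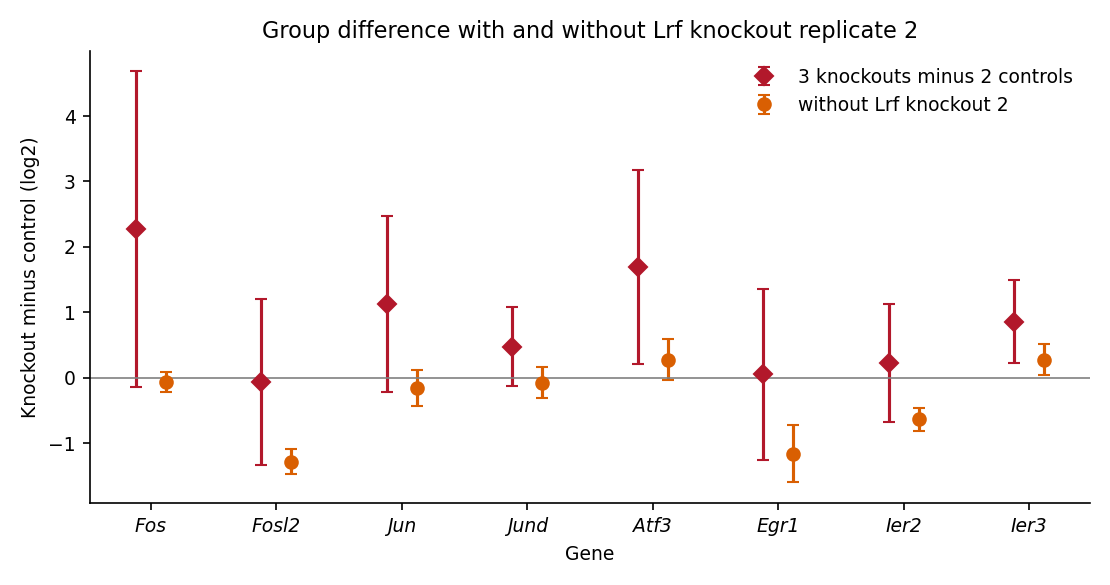
Knockout minus control log2 difference (vertical axis) of the 8 tested genes (horizontal axis), with the moderated limma SE as error bars; diamonds use 3 knockouts and 2 controls, circles leave out knockout replicate 2. Without that array the Fos difference is -0.064, against 2.27 with it, and Fosl2, Jun, Jund, Egr1 and Ier2 also lie below 0.

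Without knockout replicate 2, the differences of the 8 tested members ran from -1.28 to 0.28, and none passed the test. Fos differed by -0.064 (SE 0.16), Jun by -0.15 (SE 0.27), Jund by -0.074 (SE 0.24), Atf3 by 0.28 (SE 0.31) and Ier3 by 0.28 (SE 0.23). Fosl2, Egr1 and Ier2 were the 3 of 10 members with both remaining knockouts below both controls, where 11.3% of all genes showed this. Fosl2 differed by -1.28 (SE 0.20), Egr1 by -1.16 (SE 0.44) and Ier2 by -0.63 (SE 0.18). Their unadjusted limma p-values were 0.0035, 0.061 and 0.025, and the adjusted p was 0.953 for each, with both remaining knockouts lower in each case. These values are for the brightest probe sets. The second Fosl2 probe set went the other way, with a difference of 0.12 (SE 0.16), so the lower Fosl2 value rests on 1 probe set. Over the 10 members the median difference without replicate 2 was -0.11, and over all genes 0.00. In the same 4 arrays 9 of 10 macrophage markers (median difference -1.41) were also lower in both knockouts than in both controls. So were 4 of 7 neutrophil markers (median -1.27), 3 of 7 B cell markers and 3 of 6 granulocyte-monocyte progenitor markers. Mast cell and basophil markers went both ways, with 2 of 7 lower, 2 of 7 higher and a median difference of 0.19. Higher in both knockouts were 2 of 5 natural killer cell, 1 of 6 T cell and 1 of 6 dendritic cell markers (11.4% of all genes). Their median differences were 0.33, -0.12 and 0.28. The T cell gene was Cd3g, which did not pass the level filter. The part of these cell types in the Fosl2, Egr1 and Ier2 values was not tested.

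Other early response genes shared the gap in part. Of 16 other immediate early transcription factors, 8 read at least 1 log2 above every other array in knockout replicate 2 (2.85% of all genes), and their median distance to the mean of the other 4 arrays was 1.48. Klf4, a zinc finger factor, read 11.95 there, against 5.96 to 6.33 in the other arrays. Klf2 read 10.50 against 5.64 to 7.70, Ier5 11.13 against 8.19 to 8.67, and Egr2 7.65 against 4.98 to 5.35. The lower Egr2 values lay under 5.77, so the size of its gap is uncertain. The whole list did not share the gap: the orphan nuclear receptor gene Nr4a1 read 9.76 against 7.33 to 7.74, while Nr4a3 read 8.22 against 8.05 to 8.14 and Egr3 7.60 against 7.46 to 7.59. Myc, also an early response gene, read 8.61 in replicate 2 and 9.49 to 10.79 in the other arrays, and was the member of this list with the lowest relative value.

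Feedback regulators, which are induced with immediate early genes and dampen signalling or destabilise early RNAs, had 10 of 19 genes with such a gap (2.85% of all genes). Their median distance was 1.61. Dusp1, a phosphatase of MAP kinases, read 13.17 in knockout replicate 2, against 8.74 to 9.21 in the other arrays. Zfp36, which promotes decay of AU-rich mRNAs, read 11.91 against 7.55 to 8.25, and the pseudokinase gene Trib1 read 9.97 against 6.75 to 7.23. Nfkbiz, an IkappaB family member, read 11.87 against 7.75 to 9.29. Dusp4, Spry1 and Spry2 did not share the gap, with distances of replicate 2 to the highest other array of -2.36, -0.39 and 0.04.

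Genes for secreted or surface proteins that can be induced through AP-1 had 8 of 17 members with the gap (2.85% of all genes). Only 7 of the 17 passed the level filter. Cxcl2, a neutrophil chemokine, read 11.75 in knockout replicate 2, against 4.19 to 4.91 in the other arrays. Ptgs2, the inducible cyclooxygenase, read 8.98 against 3.60 to 3.99, Ccl3 read 9.04 against 4.22 to 4.99, and Il1b, an inflammatory cytokine, 10.06 against 6.10 to 6.55. The lower values of Cxcl2, Ptgs2 and Ccl3 lay under 5.77, so the sizes of their gaps are uncertain. Ccn1 and Ccn2, classical early targets in fibroblasts, were dim, reading 4.79 and 4.25 to 4.49 across the arrays.

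The upstream pathway and most other bZIP genes did not show the gap. Of 17 genes for MAP kinases, their kinases and serum response factors, 0 read at least 1 log2 above every other array (2.85% of all genes). Their median distance was 0.068. The largest gap among them was 0.79, for the kinase gene Map2k1, and Srf itself read 8.86 in replicate 2 and 8.17 to 8.59 elsewhere. Of 16 other bZIP genes, 2 had the gap: Cebpb read 10.32 against 7.03 to 7.68, and Bach2 9.84 against 7.50 to 8.47. The AP-1 partners Batf (8.18 in replicate 2, 7.75 to 8.73 elsewhere) and Atf2 (10.60 against 10.73 to 11.07) lay within or below the range of the other arrays. In limma 0 genes of any of these lists passed the comparison of knockout with control.

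Heat shock genes split. The inducible Hsp70 genes Hspa1a and Hspa1b were the 2 of 12 with the gap (2.85% of all genes), and the median distance of the list was -0.26. Hspa1a read 7.03, 12.96 and 5.79 in the knockouts, against 5.38 and 5.69 in the controls, so that all 3 knockouts were above both controls. Hspa1b read 11.12, 13.40 and 7.92 in the knockouts, against 6.05 and 8.74 in the controls, so that knockout replicate 1 was also above both controls. The copies are nearly identical in sequence, and signal between them is uncertain. The chaperone genes Hsph1 and Hspe1 read 11.35 and 10.35 in replicate 2, below the 11.89 to 12.81 and 10.65 to 11.83 of the other arrays. Apart from replicate 2, 8 of the 12 heat shock genes were higher in both other knockouts than in both controls (11.4% of all genes). In 0 of them were both lower (11.3%).

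The genes most like the members were taken as the 10 others past the level filter with the largest gap of knockout replicate 2, measured over all 5 arrays. They were Cxcl2 with a gap of 6.84, Hspa1a with 5.93, Klf4 with 5.63, the fibronectin gene Fn1 with 5.27, the B cell gene Fcrla with 5.16, Sirpb1a with 4.75, the arginase gene Arg2 with 4.41, the coagulation factor gene F13a1 with 4.36, H2-Q10 with 4.17 and the myeloid lectin gene Clec4d with 4.10. Among members the gap was 6.82 for Fos, 4.34 for Fosb, 4.03 for Atf3 and 3.50 for Jun, so that Cxcl2 alone exceeded Fos. Of the 10 others, 4 averaged under the filter level of 5.77 in the other 4 arrays and passed it only with replicate 2: Cxcl2 (4.55), Fcrla (5.02), Arg2 (5.15) and H2-Q10 (5.39). Their gaps start near background, so their sizes and their order against Fos are uncertain. The probe sets of Fcrla and Clec4d are of a kind that can match several transcripts, as can those of multigene families such as Sirpb1a and H2-Q10.

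Markers of cell identity also differed in knockout replicate 2. All 10 LT-HSC markers measured read at least 1 log2 below the lowest of the other 4 arrays (2.73% of all genes), and 2 of 10 macrophage markers did. Kit read 9.60 there against 11.12 to 11.82, Slamf1, which encodes CD150, 6.60 against 8.06 to 9.16, and Procr 7.62 against 9.79 to 10.69. The linear values of the LT-HSC markers summed to 15838, 3218 and 17238 in the knockouts, against 12560 and 24604 in the controls. Of the genes for proteins excluded by the sort, Cd48 read 9.97 in replicate 2 against 7.87 to 8.59 elsewhere, Il7r 10.50 against 6.21 to 9.35, and Flt3 8.56 against 8.25 to 9.50.

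Against 2.85% of all genes, 6 of 7 B cell markers read at least 1 log2 above every other array in knockout replicate 2. So did 4 of 7 mast cell and basophil, 3 of 6 granulocyte-monocyte progenitor and 2 of 6 T cell markers. The count was 1 each of 7 neutrophil, 6 dendritic cell, 6 erythroid and 5 natural killer cell markers, and 0 of 10 macrophage markers. Fcer1a (mast cell and basophil) and Cd28 (T cell) read under 5.77 in the other arrays, so the sizes of their gaps are uncertain. The B cell markers summed to 1177, 5273 and 1439 in the knockouts and 1249 and 1818 in the controls. The mast cell and basophil markers summed to 851, 8643 and 1175 in the knockouts and 2850 and 1087 in the controls. Of the latter, Hdc was the brightest in knockout replicate 2 (log2 value 12.38) and in control 1 (11.29), so it weighs most in those sums. The neutrophil markers summed to 32262, 177942 and 74756 in the knockouts and 159261 and 77240 in the controls. Of the macrophage markers, 9 of 10 were lower in all 3 knockouts than in both controls (3.74% of all genes), with a median knockout minus control difference of -1.93, and 0 passed in limma. RMA values have no zero, so no marker can be called absent. The part of these cell types and of RNA length in the AP-1 values was not tested.

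**Figure D4:**
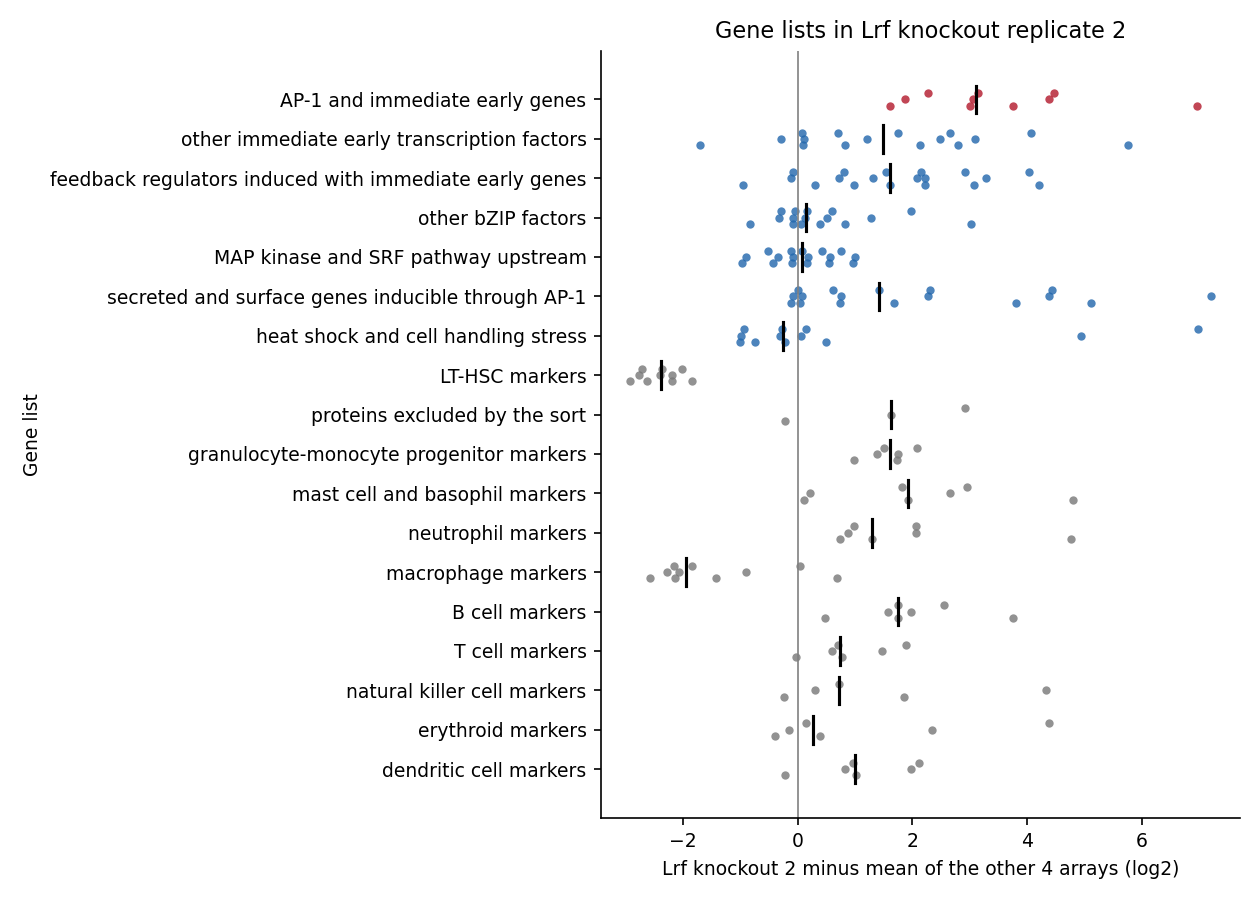
Log2 value of knockout replicate 2 minus the mean of the other 4 arrays (horizontal axis) for the genes of each list (rows); each point is a gene and each black bar the list's median, with the 10 AP-1 and immediate early genes in red, related lists in blue and cell markers in grey. The red points all lie right of 0 with a median of 3.10, the MAP kinase and SRF pathway sits around 0.068, and the LT-HSC markers lie left of 0 with a median of -2.38.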

How the data were processed

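RNA went through 2 rounds of in vitro transcription to give biotin cRNA, per the labels' protocols, and was hybridised to Affymetrix arrays. The authors deposited log2 RMA values for each probe set and array. The submitters' processing notes name Affymetrix Expression Console for this step, and no version is given in the sources used here.

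Of 45037 probe sets, without 64 controls, 34945 had 1 gene symbol in the platform annotation, 932 several and 9160 none; genes were named from the first kind. The 40% with the lowest mean (below 5.77) were left out, and 27022 were tested in limma 3.58.1 under R 4.3.3 (lmFit, eBayes, no covariate, two-sided, Benjamini-Hochberg over all probe sets tested). The fit was tested on simulated data. Gaps of knockout replicate 2 are descriptions of 1 array and were taken over all 18193 genes, filtered or not, unless stated. The list of 10 genes, the other lists, the markers and the tests were chosen with earlier results of these data known. From each list, the count with a gap of 1 log2 and the genes with the largest gaps are given; members without a gap, the lowest genes of a list and the examples among cell markers were chosen after their values were seen. List genes without a probe set of their own were not analysed here. Promoter windows are from RefSeq (GRCm38.p6), with 8 of 10 members matched. Alternatives were other filters, gaps, scalings, priors and weights, averaged probe sets, the replicate number as a block, and the omission of single arrays. Figures were drawn with matplotlib 3.10.9.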

Additional observations from a re-analysis of the deposited data

How the results depend on the processing

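No probe set passed the comparison of knockout with control under any alternative run (0 each time; 174 to 1357 had an unadjusted limma p under 0.05). Among members past the filter the gap of at least 1 log2 in knockout replicate 2 held for 8 of 8; it held for 7 of 8 with averaged probe sets, for all 10 with no filter, and for 4 of 8 at a gap of 2 log2. Over all genes past the filter, 3.60% had the gap. This share was 3.22% with averaged probe sets, 2.85% with no filter, 0.890% at a gap of 2 log2 and 6.27% without control replicate 1. The distance of replicate 2 to the other arrays kept its sign for every member under the alternatives run, and fell to 1.59 for Fosl2 and 0.78 for Jund with the mean of their probe sets.

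Group differences, none of which passed, changed sign with array weights for Jund (-0.082), Egr1 (-0.94) and Ier2 (-0.56), and with the mean of its probe sets for Fosl2 (0.048). Array weights also took Fos to 0.16, Jun to 0.18 and Atf3 to 0.53. Leaving out single arrays gave -0.064 to 3.48 for Fos, -1.28 to 0.62 for Fosl2, -0.15 to 1.93 for Jun, -0.074 to 0.78 for Jund, -1.16 to 0.75 for Egr1 and -0.63 to 0.66 for Ier2. With the replicate block, Fosl2 differed by 0.46, Fos by 3.48, and 0 probe sets passed. Same-numbered arrays deviated in opposite directions from their group means (correlations -0.54 and -0.57). The deviations of 2 controls mirror each other by construction, so these correlations are not independent and cannot show how samples were paired. A crossed block, chosen after seeing the data, also gave 0 calls. The cause of these changes was not tested. The number of arrays, and values near background for Fosb, Junb and Atf3, limit all of this.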
